A study of Sus scrofa with 6 samples.

Results

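The pituitary of anestrous sows was compared with that of estrous sows across all genes of the deposited pituitary table, 19465 genes, which was every gene that the series lists. Pituitaries came from primiparous sows of the Landrace x Large White cross. In the estrous state the sows were in normal estrus, and in the anestrous state the labels put the anestrus down to inactive ovaries. The series holds 6 libraries, of which 2 are pituitary libraries, 1 per state. Per state the labels name 3 sows, without stating whether their RNA was pooled. Age, day of the cycle and time since weaning are not given in the sources used here. With 1 pituitary library per state there was no replicate and no test of the states within the pituitary, and the pituitary values describe these 2 libraries. Reads and levels are given in the order estrous, then anestrous, and "higher" or "lower" refers to the anestrous side.

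The anterior pituitary is built from cell types that each make a main hormone: gonadotrophs make follicle-stimulating hormone (FSH) and luteinising hormone from a shared alpha subunit and separate beta subunits, corticotrophs make adrenocorticotropin from the precursor pro-opiomelanocortin, and thyrotrophs, somatotrophs and lactotrophs make thyrotropin, growth hormone and prolactin. Hypothalamic factors reach these cells through the portal blood and act on G protein-coupled receptors, and hormones of the ovary, adrenal and thyroid act back on them. Ovarian oestradiol and inhibin are known to hold down FSH, and pulses of gonadotropin-releasing hormone (GnRH) drive the gonadotrophs. The posterior lobe is made of axon endings of vasopressin and oxytocin neurons and of glial pituicytes, and the labels name the pituitary as a whole without saying whether lobes were separated.

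Genes that define the anterior pituitary were among those with most reads. The estrous library had 17010663 reads in genes and the anestrous library 17384789, and 15317 and 15182 genes had a read. The 10 genes with most reads held 33.3% of the estrous and 35.9% of the anestrous reads. These included PRL (prolactin), GH1 (growth hormone), POMC (pro-opiomelanocortin), CHGB (chromogranin B) and CGA (the glycoprotein hormone alpha subunit). Of 10 ovarian steroidogenic and oocyte genes found, 8 were under a mean normalised count of 50. Among these 8, STAR had 16 and 17 reads, CYP17A1 17 and 17, and CYP19A1 1 and 3. The others were HSD17B1, an oestrogen-activating enzyme, with 51 and 108 reads, and GDF9, an oocyte growth factor, with 456 and 702. The summed reads of the list were 560 and 865.

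Of the 19465 genes, 10720 had a mean normalised read count of at least 50 over the 2 libraries, and they form the set in which differences were counted. A gene was called higher when its log2 ratio, anestrous over estrous with 1 added to both normalised counts, was at least 1 (2-fold), and called lower when it was at most -1. That rule called 129 genes (1.20%) higher and 204 (1.90%) lower. Counts of called genes in the lists below are to be read against these shares. With library totals made equal in place of the authors' size factors, all log2 ratios moved by -0.12 and the counts were 98 and 277, so the higher genes made up 26.1% of the counted genes against 38.7%. The median log2 ratio of all 10720 genes was 0.01, with 90% of them between -0.68 and 0.57. Of these genes, 51.3% had a log2 ratio above 0. With equal totals 36.2% did, and the median was -0.10, the level against which list values with equal totals are to be read. The share past 2-fold depended on the level. Among the 1367 genes with a mean from 50 to 100 it was 3.44% higher and 5.19% lower, and among the 2278 genes from 1000 to 5000 it was 0.263% and 0.790%. An adjusted p of at most 0.05 stood beside 100 genes in the authors' deposited table, and 86 of them were also called by the 2-fold rule, 36 higher and 50 lower. That comparison rested on the same 2 libraries, 1 per state. Its adjusted p-values, here and below, therefore hold no measure of variation between sows of a state.

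**Figure D1:**
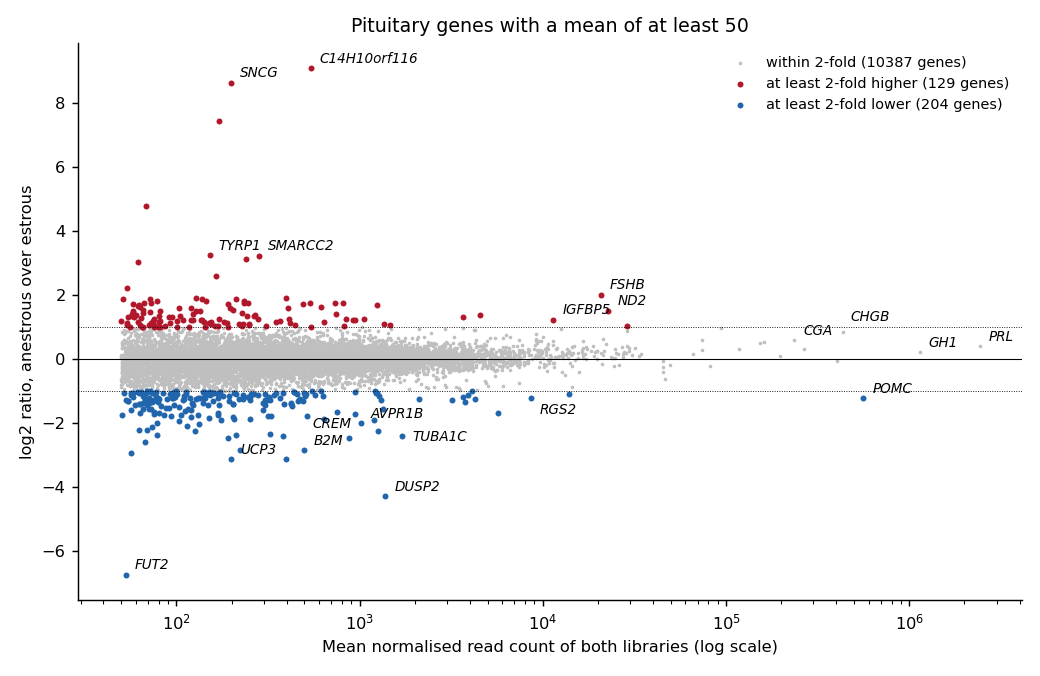
Each point is a gene with a mean normalised read count of at least 50 (x axis, log scale), against its log2 ratio of the anestrous over the estrous pituitary library (y axis); red points are the 129 genes called higher, blue points the 204 called lower, and dotted lines mark 2-fold. FSHB has the highest log2 ratio, 2.02, among genes with a mean of at least 1000, POMC is the most abundant gene past 2-fold at -1.21, and DUSP2 lies at -4.29.

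The gene for the FSH beta subunit was higher in the anestrous library and the precursor of adrenocorticotropin was lower, while the genes for prolactin and growth hormone stayed within 2-fold. FSHB (ENSSSCG00000013328), which encodes the subunit that gives FSH its specificity, had 8442 reads in the estrous and 32208 in the anestrous library. Its normalised count was 4.04-fold higher, with an exact 95% interval of 3.95 to 4.14 that covers counting error only, as do all intervals here. In the authors' deposited table the adjusted p of FSHB was 0.000128. CGA, the alpha subunit that FSH shares with luteinising hormone and thyrotropin, had 193057 and 274359 reads, a ratio of 1.51 and so under 2-fold. LHB, the beta subunit of luteinising hormone, was not found by name and was not analysed here.

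POMC (ENSSSCG00000021155), the precursor of adrenocorticotropin and the melanocortins, had 808312 reads in the estrous and 328682 in the anestrous library, or 4.75% and 1.89% of all reads in genes. The normalised count was 2.32-fold lower (2.31 to 2.33), yet in the authors' deposited table its adjusted p was 1. Less RNA of such a gene in a bulk library can come from fewer cells of the type or from less RNA per cell, and these cannot be told apart here. TSHB, the beta subunit of thyrotropin, had 4783 and 2322 reads. Its log2 ratio of -0.96 lay just inside 2-fold, and it was -1.07 with equal library totals. PRL took 12.6% of the estrous and 15.4% of the anestrous reads, a ratio of normalised counts of 1.33, and GH1 took 6.35% and 6.85%, a ratio of 1.17. Over the 6 hormone genes measured, 1 was called higher and 1 called lower, and the median log2 ratio was 0.32 against 0.01 for all measured genes.

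**Figure D2:**
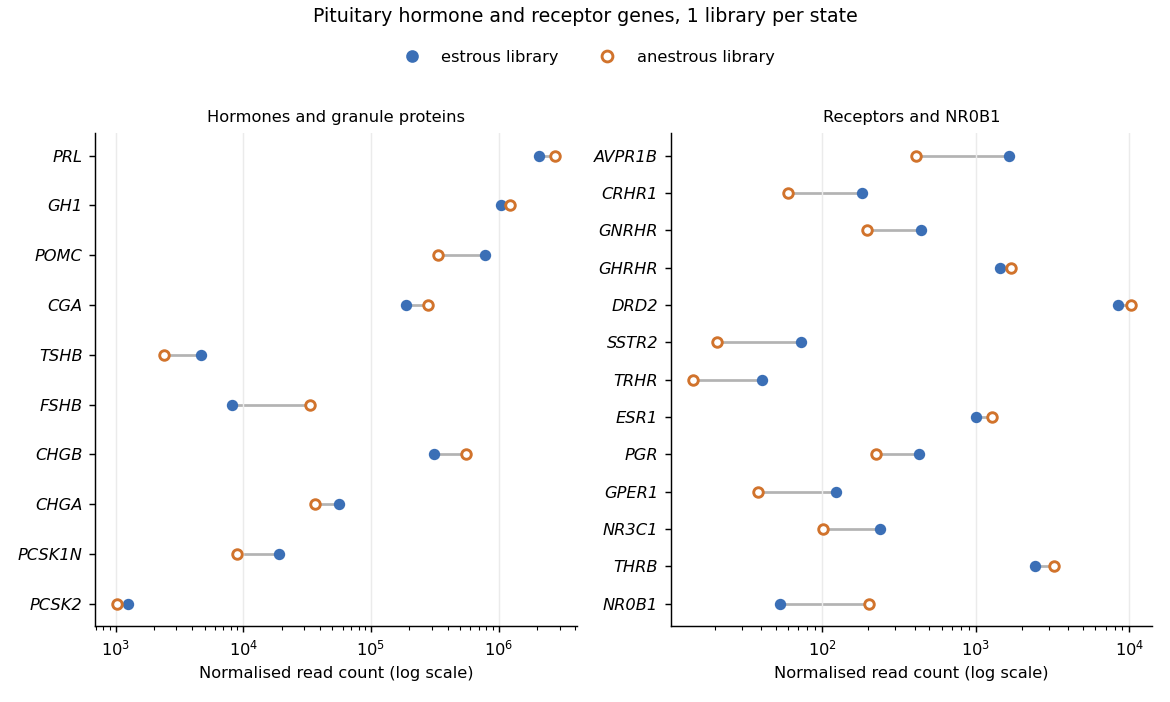
Normalised read counts (x axis, log scale) of hormone and granule genes (left) and of receptor genes with NR0B1 (right) in the estrous library (filled) and the anestrous library (open), 1 library per state and so without error bars. FSHB and NR0B1 lie to the right in the anestrous library, POMC, PCSK1N, AVPR1B, CRHR1 and GNRHR lie to the left, and PRL, GH1, DRD2 and GHRHR lie close together.

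Among receptors for hypothalamic hormones, those of corticotrophs and gonadotrophs were lower, and the dopamine and growth hormone-releasing hormone receptors were within 2-fold. Of 18 such receptor genes found, 5 reached the mean of 50. Of these 5, 3 were called lower and none higher, against 1.90% and 1.20% of all measured genes. AVPR1B, the receptor through which vasopressin acts on corticotrophs, had 1685 and 398 reads and was 4.0-fold lower (3.58 to 4.47). CRHR1, the receptor for corticotropin-releasing hormone, had 187 and 58 reads and was 3.04-fold lower (2.26 to 4.16). GNRHR, the GnRH receptor, had 454 and 190 reads and was 2.25-fold lower (1.90 to 2.69). The other measured receptors had log2 ratios near 0. They were DRD2, through which dopamine restrains lactotrophs (8678 and 9876 reads, log2 ratio 0.27), and GHRHR, which drives somatotrophs (1483 and 1641 reads, 0.23). The authors' deposited table gave an adjusted p of 2.81e-07 for AVPR1B, 0.213 for CRHR1 and 0.248 for GNRHR.

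The other 13 receptors were under the mean of 50 and were not counted. Of these, SSTR2, a somatostatin receptor, had 75 and 20 reads (3.54-fold lower, counting interval 2.14 to 6.12). TRHR, the receptor for thyrotropin-releasing hormone, had 42 and 14 reads (2.83-fold lower, 1.52 to 5.61). SSTR3, another somatostatin receptor, went the other way with 33 and 60 reads (1.93-fold higher, 1.24 to 3.04). The kisspeptin receptor KISS1R had 11 reads in each library and the ghrelin receptor GHSR 13 and 12, too few to show a difference.

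Gonadotroph genes did not share a direction. Of 10 with a mean of at least 50, 2 were called higher, FSHB and NR0B1, and 1 was called lower, GNRHR, with a median log2 ratio of 0.46. NR0B1 (DAX1), an orphan nuclear receptor that represses SF1-driven transcription, had 55 and 196 reads and was 3.78-fold higher (2.79 to 5.19). In the authors' deposited table its adjusted p was 0.0463. The other members lay within 2-fold and on either side of equal levels. FOXL2, a forkhead factor that works with activin signalling on FSHB, had 212 and 134 reads (log2 ratio -0.57), and GATA2, a zinc finger factor of gonadotrophs and thyrotrophs, had 269 and 376 (0.56). PGR, the progesterone receptor, had 437 and 218 reads, a log2 ratio of -0.92 that became -1.03 with equal totals.

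Activin and inhibin signals are known to set FSHB transcription, and their genes were mostly within 2-fold. Of 20 measured members of the activin, inhibin, follistatin and bone morphogenetic protein (BMP) list, 12 had a log2 ratio above 0, 1 was called higher and 1 called lower (median 0.19, and 0.08 with 11 above 0 under equal totals). BAMBI, a decoy receptor of the family, had 442 and 173 reads and was 2.41-fold lower (2.02 to 2.89), with an adjusted p of 0.164 in the authors' deposited table. CHRD (chordin), which binds BMPs outside the cell, had 54 and 104 reads and was 2.04-fold higher (1.46 to 2.89), under 2-fold with equal totals at 0.90. Receptors and transducers lay between: ACVR1B, an activin type I receptor, at a log2 ratio of 0.66, TGFBR3 (betaglycan, the co-receptor of inhibin) at 0.65 and SMAD3 at 0.50. INHA, the inhibin alpha subunit, had 58 and 66 reads. The activin-binding gene FST had 45 and 30 reads and the activin subunit INHBA 4 and 6, and the ratio of FST was within counting error of equal levels (1.42-fold lower, 0.872 to 2.33).

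Corticotroph genes were lower more often than any other lineage list counted here. Of 12 measured members, 6 were called lower and none called higher, against 1.90% and 1.20% of all measured genes, and the median log2 ratio was -0.63. The 6 were POMC, AVPR1B and CRHR1 with NR3C1, NR4A3 and NR4A2. All 6 are also counted in the hormone, receptor or immediate early lists. The list was written with earlier results of these data known, so its count is descriptive and not a test of the lineage. NR4A3 and NR4A2 encode orphan nuclear receptors of the NUR77 family that act on the POMC promoter after corticotropin-releasing hormone. NR4A3 was 3.74-fold lower (2.88 to 4.91) on 285 and 72 reads, and NR4A2 was 2.17-fold lower (1.91 to 2.47) on 802 and 349. NR3C1, the glucocorticoid receptor that carries adrenal feedback, had 245 and 98 reads and was 2.36-fold lower (1.86 to 3.01). TBX19 (TPIT), the factor that marks both lineages making POMC, had 1194 and 1158 reads, a log2 ratio of 0.04 that changed sign to -0.08 with equal totals.

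POMC is also made by melanotrophs of the intermediate lobe, whose list had 6 measured members with a median log2 ratio of -0.02. Their summed reads, with those of 1 further gene under the mean of 50, were 11552 and 12446. These were 679 RPM (reads scaled to a common library total) in the estrous and 716 RPM in the anestrous library. DRD2, which lactotrophs also make, held most of them with 8678 and 9876 reads, so the sums do not stand for melanotrophs alone. PCSK2, the convertase that cuts POMC further in melanotrophs, had 1278 and 999 reads (log2 ratio -0.27). MC3R, a melanocortin receptor, was the member past 2-fold, with 46 and 97 reads (2.23-fold higher, 1.56 to 3.25). The part of a different share of intermediate lobe in the POMC ratio was not tested.

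Genes known to respond to glucocorticoids gave 2 called lower of 14 measured and none called higher (median -0.27, 4 above 0). CRISPLD2, a secreted protein gene, had 265 and 77 reads and was 3.25-fold lower (2.51 to 4.24). PER1, a clock gene that glucocorticoids and cAMP induce, had 5609 and 2643 reads and was 2.0-fold lower (1.91 to 2.1), on the threshold, and lost its place with a trimmed mean of log ratios. The other responsive genes did not follow a single direction. TSC22D3 (GILZ) had a log2 ratio of -0.63, KLF9 -0.70 and SGK1 -0.40, while FKBP5, which restrains the glucocorticoid receptor, had 0.47 and DUSP1 0.18.

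Thyroid axis genes included 2 called lower of 9 measured and none called higher, against 1.90% and 1.20% of all measured genes. The list median was -0.70, with 4 log2 ratios above 0. HR (hairless), a corepressor that thyroid hormone induces, had 821 and 226 reads and was 3.43-fold lower (2.96 to 3.99). SLCO1C1, a transporter of thyroxine, had 327 and 87 reads and was 3.55-fold lower (2.79 to 4.55). In the authors' deposited table the adjusted p was 0.000343 for HR and 0.0164 for SLCO1C1. CRYM, which binds thyroid hormone in the cytosol, had 6627 and 3494 reads (log2 ratio -0.84) and KLF9, which thyroid hormone also induces, 933 and 541 (-0.70). The hormone receptors had ratios above 0, THRB with 2495 and 3136 reads (0.41) and THRA with 2161 and 2531 (0.31). The deiodinase genes DIO1 and DIO3 had between 1 and 6 reads in a library.

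No measured somatotroph or lactotroph gene was past 2-fold. Of 11 genes with a mean of at least 50, 10 had a log2 ratio above 0, with a median of 0.27 and a range from -0.26 to 0.53, and 9 were above 0 with equal totals (median 0.16). The member below 0 was POU1F1 (PIT1), the factor of the somatotroph, lactotroph and thyrotroph lineages, with 1005 and 793 reads. CALB1, a calcium-binding protein gene, had 155 and 212 reads, the highest ratio of the list. Across the 18 measured lineage transcription factors, 9 had a log2 ratio above 0 and the median was 0.01. Besides NR0B1, INSM1, a zinc finger factor of endocrine cell differentiation, was past 2-fold with 843 and 396 reads (2.01-fold lower, 1.78 to 2.27), but not with a trimmed mean of log ratios or a pseudocount of 5. SOX2, a factor of pituitary stem cells, had 739 and 642 reads (log2 ratio -0.12).

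Steroid, thyroid and retinoid receptors had a median log2 ratio of -0.18, with 7 of 15 measured above 0. Of the 15, 2 were called lower and none higher, against 1.90% and 1.20% of all measured genes. The 2 lower were NR3C1 and GPER1, a membrane receptor for oestrogen, which had 127 and 37 reads (3.24-fold lower, 2.23 to 4.81). ESR1, the nuclear oestrogen receptor through which feedback reaches gonadotrophs, had 1028 and 1236 reads, a ratio of 1.27 (1.17 to 1.39), in its main entry, and a second entry of that name had 21 and 19. ESR2, the other nuclear oestrogen receptor, had 13 and 15 reads. Of 13 measured genes known to respond to oestrogen, 4 had a log2 ratio above 0 (median -0.27), and MYC was the member past 2-fold. GREB1, an oestrogen-induced gene in other tissues, had 77 and 60 reads.

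The granule cargo protein chromogranin B and the processing inhibitor proSAAS differed in opposite directions. CHGB, among the 10 genes with most reads, had 319367 and 540881 reads, a ratio of 1.79 and a log2 ratio of 0.84. CHGA, the chromogranin that nucleates granules, had 57844 and 35761 (log2 ratio -0.61). None of the 11 measured granins and granule proteins was past 2-fold, and the median was 0.10, or -0.01 with equal totals. PCSK1N (proSAAS), an inhibitor of prohormone convertase 1, had 19485 and 8640 reads and was 2.13-fold lower (2.07 to 2.18), the only gene past 2-fold of 12 measured in prohormone processing (median -0.18). QPCT, the glutaminyl cyclase that caps the amino end of peptides such as GnRH and thyrotropin-releasing hormone, had 1482 and 2707 reads (log2 ratio 0.95). The carboxypeptidase CPE and the amidating enzyme PAM had log2 ratios of -0.17 and 0.01.

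In the exocytosis machinery, 3 of 22 measured genes were called lower and 1 called higher, against 1.90% and 1.20% of all measured genes. The 3 were all synaptotagmin-like genes, whose products tie RAB27 granules to the membrane. SYTL1 had 404 and 52 reads (7.33-fold lower, 5.48 to 9.98), SYTL3 had 452 and 175 (2.44-fold, 2.04 to 2.92), and SYTL2 had 142 and 63 (2.13-fold, 1.57 to 2.91). In the authors' deposited table the adjusted p was 1.28e-06 for SYTL1, 0.142 for SYTL3 and 1 for SYTL2. SYTL5 had a log2 ratio of -0.82, and RAB27A, their partner, 3670 and 3152 reads (-0.14). CPLX1 (complexin), a clamp of the SNARE fusion machinery, had 112 and 220 reads and was 2.08-fold higher (1.65 to 2.64), though its log2 ratio was 0.94 with equal totals. The list median was -0.05. None of the 20 measured ion channels of pituitary cells was past 2-fold (median -0.16).

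Within the cAMP pathway, 2 of 20 measured genes were called lower and 1 called higher, against 1.90% and 1.20% of all measured genes. The list median was -0.08. CREM, whose inducible form ends cAMP-driven transcription, had 1942 and 485 reads and was 3.78-fold lower (3.42 to 4.18), with an adjusted p of 4.3e-07 in the authors' deposited table. SIK2, a salt-inducible kinase that holds CREB coactivators in the cytosol, had 194 and 51 reads and was 3.59-fold lower (2.62 to 4.99). PDE10A, a phosphodiesterase gene, had 97 and 186 reads, a log2 ratio of 1.02 that was 0.90 with equal totals. Coactivators and cyclases were nearer to equal levels, with CRTC2 at 0.39, ADCY6 at 0.37 and ADCY9 at -0.62.

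GnRH receptor signalling genes were mostly near equal levels (28 measured, 13 above 0, median -0.03), and RGS2 was the member past 2-fold. RGS2, which shuts off Gq, the G protein of the GnRH receptor, had 12370 and 5017 reads and was 2.33-fold lower (2.25 to 2.40). GEM, a small GTPase that damps calcium channels, had 253 and 119 reads, just inside 2-fold at -1.0 and past it with equal totals at -1.11. The Ras-like gene RASD1, which dexamethasone induces in corticotroph cells and which is not in that list, had 5496 and 2387 reads and was 2.17-fold lower (2.07 to 2.28). The authors' deposited table had an adjusted p of 0.0273 for RGS2 and 0.0223 for RASD1.

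Genes that cells switch on quickly and transiently split between strongly lower members and members near equal levels. Of 19 measured immediate early genes, 6 were called lower and 1 was called higher, against 1.90% and 1.20% of all measured genes. A log2 ratio above 0 was found for 5 (median -0.27, and -0.38 with 2 above 0 under equal totals). Besides NR4A3 and NR4A2 the lower ones were ATF3, a stress-induced repressor with 173 and 52 reads (3.14-fold, 2.29 to 4.37), NPAS4, a factor induced by calcium entry with 318 and 127 (2.36-fold, 1.92 to 2.93), and the growth arrest genes GADD45B (-1.05) and GADD45G (-1.02). The classic members stayed close to equal levels. FOS had 1769 and 1731 reads, JUN 3321 and 3044, EGR1, which mediates GnRH action on the luteinising hormone beta gene, 2052 and 2351, and BTG2 1671 and 1651. MYC, a driver of growth and biosynthesis, had 170 and 607 reads and was 3.78-fold higher (3.19 to 4.51). In the authors' deposited table the adjusted p was 0.00029 for MYC and 0.213 for ATF3. FOSL2 had 88 and 12 reads and was just under the mean of 50. The immediate early list had a median of -0.41 in the hypothalamus (19 genes) and of -0.41 in the ovary (22 genes).

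Among 16 measured feedback inhibitors of the MAP kinase pathway, 3 were called lower and none higher, against 1.90% and 1.20% of all measured genes. The list median was -0.31, with 4 log2 ratios above 0. DUSP2, a nuclear phosphatase of MAP kinases, had 2706 and 130 reads and was 19.6-fold lower (16.5 to 23.6), with an adjusted p of 2.84e-32 in the authors' deposited table. Among the 10720 measured genes, only FUT2 had a lower log2 ratio. SPRY4 had 109 and 34 reads (3.03-fold lower, 2.04 to 4.59), and SPRED1 85 and 39 (2.06-fold lower, 1.39 to 3.09), which had a log2 ratio of -0.96 with a pseudocount of 5. Other phosphatases had smaller ratios. DUSP4 was at -0.76, DUSP5 at -0.27 and DUSP1 at 0.18.

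**Figure D3:**
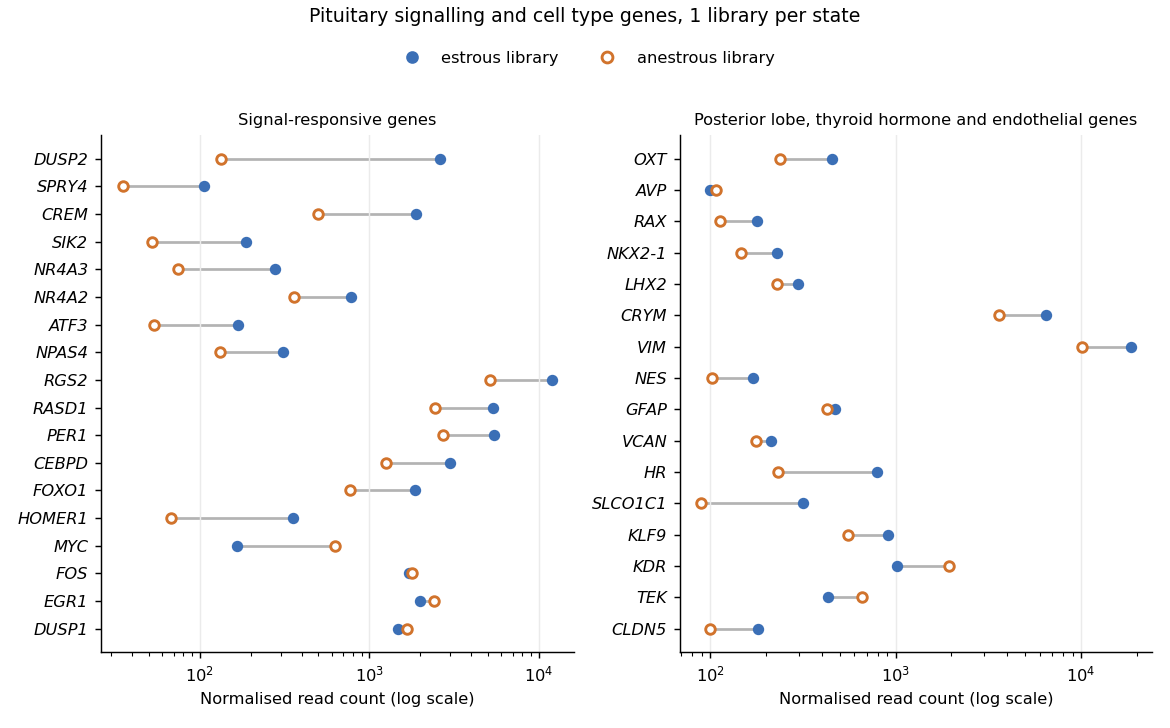
Normalised read counts (x axis, log scale) of signal-responsive genes (left) and of posterior lobe, thyroid hormone and endothelial genes (right) in the estrous (filled) and the anestrous library (open), 1 library per state. DUSP2, CREM, NR4A3, RGS2 and HOMER1 lie to the left in the anestrous library and MYC to the right, while FOS, EGR1 and DUSP1 lie close together, and 9 of the 10 posterior lobe genes from OXT to VCAN lie to the left.

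Further regulators of signalling were on the lower side, chosen for their size of difference. FOXO1, a forkhead factor that insulin signalling restrains, had 1921 and 744 reads and was 2.44-fold lower (2.24 to 2.66). CEBPD, an acute phase factor, had 3067 and 1223 reads and was 2.37-fold lower (2.21 to 2.53). HOMER1, a scaffold of receptors and calcium stores with an activity-induced short form, had 366 and 66 reads and was 5.23-fold lower (4.02 to 6.91). RCAN1, an inhibitor of calcineurin that calcineurin itself induces, had 1714 and 775 reads and was 2.09-fold lower (1.92 to 2.27). The table does not separate the short and long forms of HOMER1 or the forms of CREM.

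The insulin-like growth factor binding proteins diverged. IGFBP1, a binding protein that FOXO1 is known to induce, had 1521 and 259 reads and was 5.54-fold lower (4.85 to 6.35). IGFBP5 had 7017 and 15581 reads and was 2.35-fold higher (2.29 to 2.42). In the authors' deposited table the adjusted p was 1.7e-10 for IGFBP1 and 0.0427 for IGFBP5. The other measured members of the list lay within 2-fold (14 measured, 5 above 0, median -0.18). IGFBP6 and IGFBP7 were at log2 ratios of -0.78 and -0.61, and the receptor IGF1R at 0.28. IGF1 itself had 16 and 2 reads, 7.55-fold lower with a counting interval of 1.77 to 67.7.

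Of 17 measured angiogenic and vasoactive genes, 3 were called lower and 1 called higher, against 1.90% and 1.20% of all measured genes. The list median was 0.10, and -0.01 with equal totals. The local angiotensin pair was lower at the ligand and the receptor. AGT, which encodes angiotensinogen, had 631 and 224 reads (2.66-fold lower, 2.28 to 3.11), and AGTR1, its type 1 receptor, had 672 and 257 (2.47-fold lower, 2.13 to 2.86), while ACE, the converting enzyme, had 1099 and 1112. NOS1, the neuronal nitric oxide synthase, had 195 and 79 reads and was 2.33-fold lower (1.78 to 3.06). SPP1 (osteopontin) had 2162 and 5094 reads and was 2.50-fold higher (2.37 to 2.63). VEGFA had 217 and 227 reads.

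Posterior lobe and pituicyte markers mostly had lower counts in the anestrous library. Of 14 listed markers 13 were found and all 13 had reads in both libraries. Their summed reads were 1649 RPM in the estrous and 859 RPM in the anestrous library. Of the 10 with a mean of at least 50, none was past 2-fold, 9 had a log2 ratio below 0 and the median was -0.65. OXT, the oxytocin precursor, had 466 and 231 reads (log2 ratio -0.93, and -1.04 with equal totals) and the pituicyte factors RAX and NKX2-1 were at -0.65 and -0.64. AVP, the vasopressin precursor, had 103 and 105 reads, a log2 ratio of 0.11 that was just under 0 with equal totals. VIM and CRYM, which other cells also make, held most of the summed reads, with 19142 and 9863, and 6627 and 3494. AVPR1B, POMC, HR, SLCO1C1, NR4A3 and ATF3 were lower in the same library as these markers, and the part of the posterior lobe in those ratios was not tested. In the hypothalamus the marker list had a median of -0.41 over 11 genes, with 16817 and 10394 RPM. In the ovary its median was -0.32 over 5 genes, with 5023 and 6295 RPM.

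Stem and folliculostellate cell markers had no common direction (17 measured, 9 above 0, median 0.01). GFRA3, a neurotrophic factor receptor, had 80 and 30 reads (log2 ratio -1.30) and ALDH1A3, a retinoic acid enzyme, 107 and 49 (-1.03) in its main entry, whereas CLU, the secreted chaperone clusterin, was at 0.52 and ALDH1A2 at 0.55. Endothelial markers leaned above 0 without any past 2-fold (14 measured, 9 above 0, median 0.28, and 0.16 with equal totals). KDR, the main receptor of VEGF, had 1044 and 1889 reads (0.94) and TEK 446 and 642 (0.61), but CLDN5, a tight junction protein gene, had 187 and 97 (-0.86). Their summed reads were 543 and 643 RPM.

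Fibroblast and extracellular matrix genes had log2 ratios below 0 in 21 of 25 measured members (median -0.28), 2 of them called lower. THY1, a surface glycoprotein of fibroblasts and neurons, had 5579 and 2075 reads (2.54-fold lower, 2.41 to 2.67), and COL14A1, a fibril-associated collagen, had 684 and 267 (2.42-fold lower, 2.1 to 2.80). The inhibitors of matrix proteases TIMP1 and TIMP2 went against the list at 0.91 and 0.75. MGP, a matrix inhibitor of calcification outside that list, had 4640 and 1810 reads and was 2.42-fold lower (2.29 to 2.56).

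Blood-borne cells left few reads. Of 31 lymphocyte markers found, 7 had a mean of at least 50, with a median of -0.47. The summed reads of all 31 were 1584 and 1384 (93.1 and 79.6 RPM), a large part of them from CD79A and CD79B. CD2, an adhesion molecule of T cells, had 88 and 39 reads, while the B cell receptor chains CD79A and CD79B had 270 and 433, and 273 and 423. Several T cell genes under the mean of 50 had fewer anestrous reads, with CD8A at 32 and 9, CD5 at 53 and 19 and CD6 at 40 and 15. The granzyme gene GZMB had 36 reads and 1 read (34-fold lower, counting interval 5.72 to 1379). Macrophage markers had a median of -0.12 over 15 genes, with CSF1R, the receptor that macrophages depend on, at 72 and 193 reads (2.84-fold higher, 2.16 to 3.78) and LYZ (lysozyme) at 133 and 59 (2.13-fold lower, 1.55 to 2.94). The red blood cell gene HBB had 905 and 1133 reads.

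**Figure D4:**
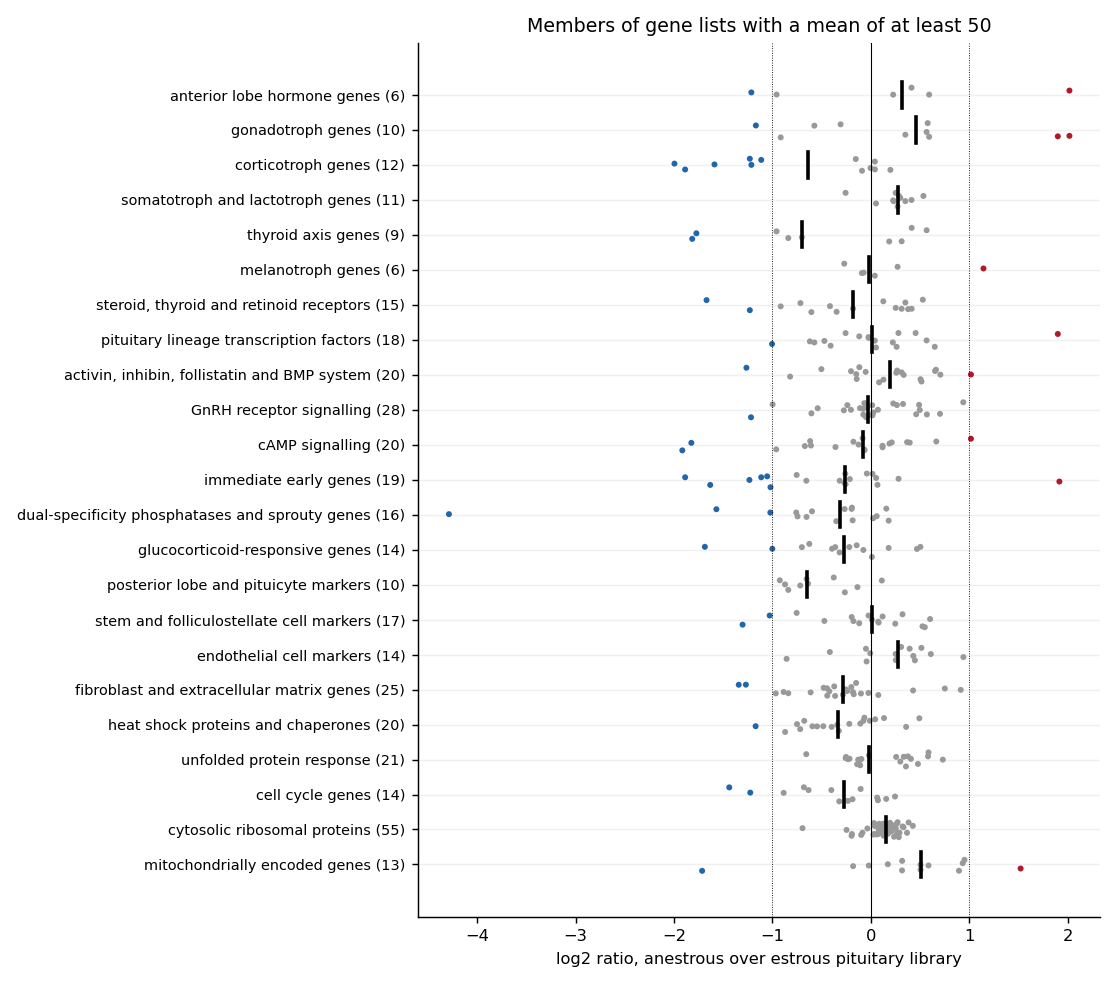
Log2 ratio of the anestrous over the estrous pituitary library (x axis) for each member with a mean normalised count of at least 50 of the gene lists named on the left, with the number of such members in brackets; black bars are list medians, dotted lines mark 2-fold, and red and blue points are past it. The corticotroph list has 6 of 12 points past 2-fold on the lower side, and the somatotroph and lactotroph list has none past 2-fold.

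Heat shock genes mostly had ratios below 0, and unfolded protein response genes lay on both sides. Of 20 measured heat shock genes, 16 had a log2 ratio below 0 and 1 was called lower (median -0.33). That was HSPH1, a nucleotide exchange partner of HSP70, with 5228 and 2190 reads (2.25-fold lower, 2.14 to 2.37), and DNAJB1, an HSP40 cochaperone, had 3051 and 1573 (-0.87). Of 21 unfolded protein response genes, 10 were above 0 and none past 2-fold (median -0.02). The chaperone HSPA5 (BiP) was at 0.35 and the disulphide isomerases PDIA4 and PDIA6 at 0.58 each, while the chaperone DNAJB9 was at -0.14 and the sensor kinase EIF2AK3 (PERK) at -0.66. None of the 40 secretory pathway or the 26 proteasome genes was past 2-fold.

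Cell cycle genes were few over the mean of 50, with 14 of 33 found, and 2 of these were called lower, none called higher (median -0.28). TOP2A, the topoisomerase of dividing cells, had 223 and 77 reads (2.73-fold lower, 2.1 to 3.59), and AURKB, a mitotic kinase, 103 and 41 (2.37-fold lower, 1.64 to 3.49). The replication genes PCNA and MCM2 had log2 ratios of -0.19 and -0.11, and MKI67 had 93 and 70 reads.

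Cytosolic ribosomal protein genes were above 0 in 48 of 55, with a median of 0.15, and in 33 of 55 with a median of 0.04 when library totals were made equal. Nuclear genes of oxidative phosphorylation were above 0 in 20 of 60 (median -0.08), and in 8 of 60 with equal totals (median -0.19), none past 2-fold. Of all measured genes, 51.3% were above 0 (median 0.01), and 36.2% with equal totals (median -0.10). Of the 13 protein genes on the mitochondrial genome 10 were above 0 (median 0.50), ND2 was called higher with 12096 and 32730 reads, and ATP8 called lower with 1498 and 430. The same list had medians of 0.41 in the hypothalamus and 0.72 in the ovary, and ND2 and ATP8 were past 2-fold in the same directions there. ATP8 overlaps ATP6 on the mitochondrial genome, so its reads are uncertain.

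The genes furthest from equal levels included several with few or no reads in 1 library. SNCG, which encodes gamma-synuclein, had 0 reads in the estrous and 387 in the anestrous library, at least 137-fold higher against a floor of 3 reads, and was the only gene over the mean of 50 with no estrous read. C14H10orf116 had 1 read and 1049 reads, a ratio of 1112 with a counting interval of 199 to 43948. Its log2 ratio was 7.06 in the hypothalamus, where it was called higher too, and 3.62 in the ovary, where its mean was under 50. TYRP1, an enzyme of melanin synthesis, had 29 and 268 reads and was 9.79-fold higher (6.66 to 14.9). Among the other melanocyte genes, DCT had 37 and 62 reads (1.78-fold higher, 1.16 to 2.74), PMEL 4 and 7, RAB38 563 and 391 and KIT 217 and 188, and TYR and SOX10 had 0. SMARCC2, a subunit of the SWI/SNF chromatin remodeller, had 55 and 496 reads and was 9.56-fold higher (7.22 to 12.9). COLGALT2, a collagen galactosyltransferase, had 47 and 276 (6.22-fold higher, 4.55 to 8.67).

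On the lower side, FUT2, a fucosyltransferase of secretory epithelia, had 109 reads in the estrous library and 0 in the anestrous, at least 34.3-fold lower, and was the only such gene over the mean of 50. UCP3, a mitochondrial carrier of muscle, had 368 and 39 reads (8.90-fold lower, 6.39 to 12.7), and FA2H, which hydroxylates fatty acids for sphingolipids, 103 and 12 (8.10-fold lower, 4.44 to 16.2). ALOX15, a lipoxygenase, had 658 and 117 reads (5.31-fold lower, 4.35 to 6.52). AQP3, a channel for water and glycerol, had 557 and 102 (5.15-fold lower, 4.17 to 6.43), and IHH, a hedgehog ligand, 135 and 24 (5.31-fold lower, 3.42 to 8.57). B2M, the light chain of MHC class I, had 903 and 118 reads (7.22-fold lower, 5.95 to 8.82). Its heavy chain partners were nearer to equal levels, with SLA-1 at 9582 and 5436 reads (1.66-fold lower), and TMP-SLA-2 past 2-fold at 8871 and 2621 (3.19-fold lower, 3.06 to 3.34). Heavy chain genes are near-identical, so reads among them may be misplaced.

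Among genes with a mean of at least 1000, A2M, CPQ and PLD3 were among those called higher. CEL and NTN4 were among those called lower (log2 ratios -1.17 and -1.05). A2M, a broad protease inhibitor, had 2593 and 6348 reads (2.59-fold, 2.48 to 2.72), CPQ, a carboxypeptidase, 602 and 1838 (3.24-fold, 2.95 to 3.55), and PLD3, a lysosomal nuclease, 19196 and 37495 (2.07-fold, 2.03 to 2.11). With equal totals PLD3 was under 2-fold at a log2 ratio of 0.93. VLDLR, a lipoprotein and reelin receptor, had 972 and 1915 reads, 1.06 and 0.95 with equal totals. Lower among these were the neurofilament gene NEFM with 6143 and 2436 reads (2.38-fold, 2.27 to 2.50) and CBARP, a regulator of calcium channel beta subunits, with 2062 and 653 (2.98-fold, 2.73 to 3.26). TUBA1C, an alpha-tubulin gene, had 2936 and 523 (5.30-fold lower, 4.83 to 5.83), while its near-identical paralog TUBA1B had 7971 and 12037, so reads may be split unevenly between them.

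**Figure D5:**
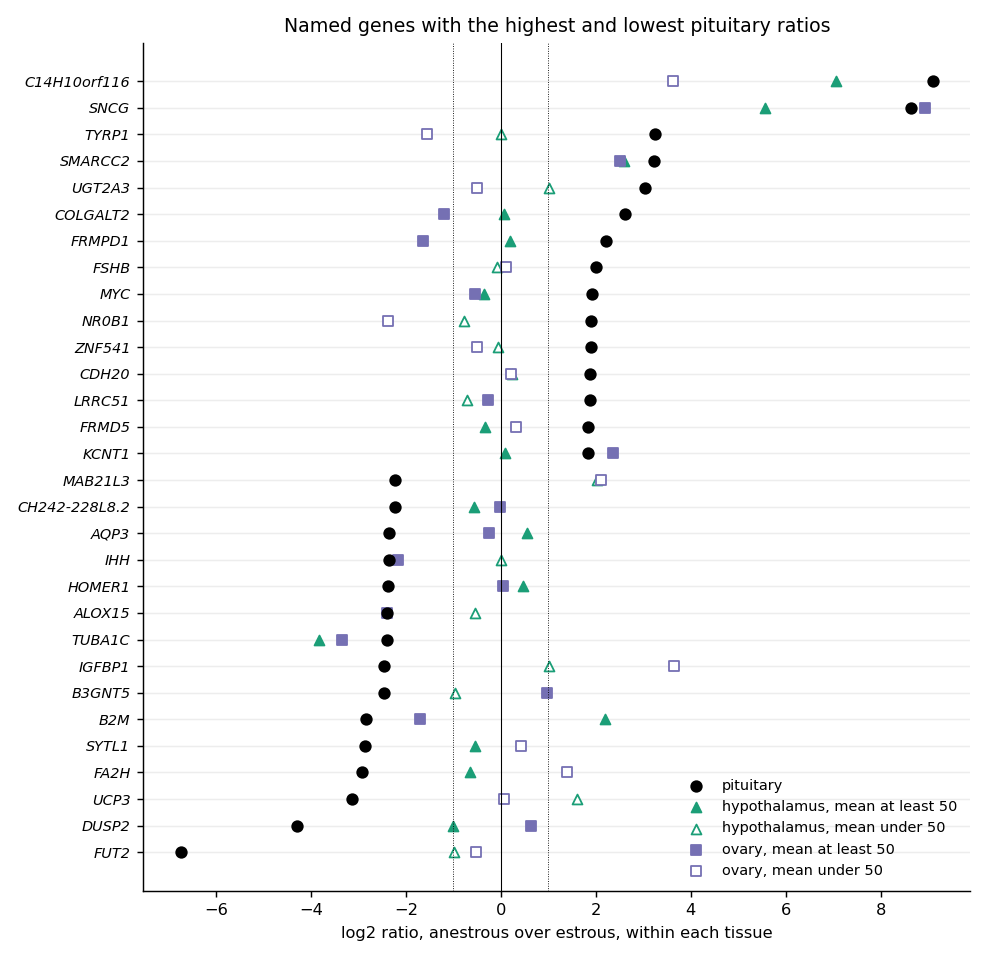
Log2 ratio of the anestrous over the estrous library (x axis) within each tissue for the genes with a symbol at both ends of the pituitary range, 15 on each side; filled hypothalamus and ovary symbols have a mean normalised count of at least 50 in that tissue and open ones less. SNCG and SMARCC2 lie on the right and TUBA1C on the left past 2-fold in every tissue, while HOMER1 and AQP3 are past 2-fold in the pituitary only, and B2M lies on the left in the pituitary and on the right in the hypothalamus.

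Pituitary calls were set beside the same comparison in hypothalamus and ovary, and differences between tissues were not tested. Among 9349 genes with a mean of at least 50 in all 3 tissues, 83.7% were within 2-fold in both other tissues, 0.225% were called higher in both and 0.225% lower in both. Of the 129 higher genes, 63 had a mean of at least 50 in every tissue. Of these, 24 (38.1%) were within 2-fold in both others and 12 (19.0%) were called higher in all 3. Named among the 12 were SNCG, SMARCC2, CPQ, CSF1R, ND2, RAB11FIP5 and SLA-DRB1. A second entry named RAB11FIP5 was called lower in the pituitary (234 and 88 reads, against 30 and 92). Of the 204 lower genes, 128 were measured in every tissue, 76 of them (59.4%) within 2-fold in both others, and 4 (3.12%) were called lower in all 3, ATP8, TMP-SLA-2 and TUBA1C among them.

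Between pairs of tissues, called genes were shared as follows. Among 10100 genes measured in pituitary and hypothalamus, 20 were higher in both, which was 20.4% of the 98 pituitary and 25.0% of the 80 hypothalamus calls, where 0.792% of all these genes were higher in the hypothalamus. Lower in both were 12, or 7.69% of 156 and 16.7% of 72, against 0.713%. With the ovary, where 9.65% of 9678 genes were higher and 6.81% lower, 27 were higher in both (35.1% of 77 pituitary calls, 2.89% of 934 ovary calls) and 32 lower in both (21.6% of 148, 4.86% of 659). Opposite calls were also made: 16 genes were higher in the pituitary and lower in the ovary (20.8% of 77, 2.43% of 659), and 25 were lower in the pituitary and higher in the ovary (16.9% of 148, 2.68% of 934). With the hypothalamus, 0 genes were higher in the pituitary and lower there, and 4 were lower in the pituitary and higher there (2.56% of 156, 5.0% of 80). POMC was lower in the hypothalamus too (log2 ratio -2.61) and was at 0.02 in the ovary, whereas the receptors AVPR1B, CRHR1 and GNRHR had means under 50 in each. CREM was at -0.43 in the hypothalamus and -0.37 in the ovary, and DUSP2 at -1.02 and 0.63.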

How the data were processed

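The labels' protocols name Trizol for the RNA and the TruSeq RNA kit of Illumina for the libraries. The submitters' processing notes name TopHat2 2.1.0. Counter, genome build, annotation and strand setting are not given in the sources used here. Overlapping and near-identical genes are therefore uncertain. The authors deposited, for each gene, a signal that equals reads over a library size factor, with p-values and adjusted p-values of DESeq per the file headers and the labels. All values (100%) were whole multiples of the column's smallest value above 0, within 0.01 of a read, and reads were recovered by that division. 1 read was worth 0.971 in the estrous and 1.03 in the anestrous library. Intervals cover counting error only, since PCR copies were not told apart by molecular identifiers.

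Ratios were taken from the deposited normalised counts with Python 3.11.15, pandas 2.3.3 and scipy 1.17.1. Folds carry no pseudocount and have exact conditional binomial (Clopper-Pearson) 95% intervals. Symbols came from the table itself (12762 of 19465 genes), then from a table of Ensembl names (14419 in all, and 555 of 9651 names differed between the sources). Of 1475 symbols in 64 gene lists, 1253 were found. Named genes were the 15 highest and 15 lowest ratios, the 10 most abundant genes, 2-fold genes with a mean of at least 1000, members of the hormone, receptor and lineage factor lists (some are not reported here), and up to 4 members of each other list. Further genes were chosen after their values were seen. The gene set, lists and rules were chosen with earlier results of these data known. Alternatives were equal totals, a trimmed mean of log ratios, a floor of 200 or none on the mean, a pseudocount of 5, and calls that also needed the authors' adjusted p. A count test (edgeR 4.0.16 and DESeq2 1.42.0, R 4.3.3) over the 3 tissues was added after seeing the data. The counting rule was tested on simulated data. No replicates could be compared.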

Additional observations from a re-analysis of the deposited data

Results flagged for a closer look

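For 8 gene and tissue pairs, a named gene was past 2-fold in the pituitary and past 2-fold the other way in another tissue, with a mean normalised count of at least 50 in each. With 1 library per tissue and state, none of these differences was tested. AGTR1, the angiotensin receptor, had a log2 ratio of -1.30 in the pituitary and 1.35 in the hypothalamus. B2M, the MHC class I light chain, had -2.84 in the pituitary and 2.18 in the hypothalamus. Against the ovary, COLGALT2 had 2.61 and -1.20, FRMPD1 2.22 and -1.64, ATP2B3, a plasma membrane calcium pump, 1.11 and -1.34, and HSD17B1, an oestrogen-activating enzyme, 1.15 and -1.07. LYZ, a myeloid lysozyme gene, had -1.08 in the pituitary and 5.63 in the ovary, and MX2, an interferon-induced GTPase, -1.22 and 2.0. The pituitary ratio of ATP2B3 was 0.99 with equal library totals, under 2-fold.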

How the results depend on the processing

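No paired analysis was possible because each state had 1 pituitary library. The counts of genes called higher and lower, 129 and 204, became 965 and 1139 with no floor on the mean, 48 and 84 with a floor of 200, and 36 and 50 where the authors' adjusted p had to be at most 0.05 as well. They stayed within 1.5 times with equal totals (98 and 277), a trimmed mean of log ratios (130 and 201) and a pseudocount of 5. The count tests had tissue as a block and treated tissues as replicates of a state. The edgeR quasi-likelihood test called 0 and 0 of 14444 genes, with 542 at an unadjusted p under 0.05, and DESeq2 called 23 and 23 of 16887. Both looked for a state difference shared by the 3 tissues, so they cannot check the pituitary calls. Among 301 named genes, equal totals ended 8 calls (ATP2B3, CHRD, CPLX1, LTF, PDE10A, PLD3, SLA-DRB1 and VLDLR), brought 11 others past 2-fold, TSHB, PGR, GEM and OXT among them, and turned the sign of 3 genes within 2-fold (TBX19, AVP and NEUROD4). A pseudocount of 5 ended 6 calls and the trimmed mean 2 (PER1 and INSM1). No named 2-fold gene changed sign under equal totals, the trimmed mean or a pseudocount of 5. Depth limits what the receptors and cell markers under a mean of 50 can show.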

Other observations

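Some gene groups not described above also held members past 2-fold. Of 23 measured interferon-stimulated genes, 2 were called lower, none called higher and 9 above 0 (median -0.06). OAS1, a sensor of double-stranded RNA, had 257 and 90 reads (log2 ratio -1.42) and MX2 172 and 69 (-1.22), while MX1 had 2335 and 2159. Of 21 complement and coagulation genes, the 2 past 2-fold were lower. THBD (thrombomodulin), which turns thrombin into an anticoagulant, had 717 and 273 reads (2.48-fold lower, 2.15 to 2.86), and F3 (tissue factor), which starts clotting, had 708 and 312 (2.14-fold lower, 1.87 to 2.45). All 6 measured motile cilium genes had log2 ratios above 0 (median 0.60), with DNAI2 at 31 and 93 reads and TEKT1 at 76 and 169, but the ciliary master factor FOXJ1, under the mean of 50, had 49 and 24.

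Clock genes held 3 genes past 2-fold of 18 measured, 2 higher and PER1 lower (median 0.08). TIMELESS had 66 and 220 reads (3.53-fold higher, 2.67 to 4.72), NR1D1 (REV-ERB alpha) 103 and 235 (2.42-fold higher, 1.91 to 3.08) and PER2 676 and 366 (log2 ratio -0.80), while ARNTL had 207 and 211 and an entry named BMAL1, the newer name of that gene, 147 and 182. The time of day of sampling is not given in the sources used here. Cholesterol synthesis and glycolysis held none past 2-fold in the pituitary (21 and 24 genes, medians 0.00 and 0.01, against -0.90 and 0.85 in the ovary). Among neuropeptides made in the pituitary, PENK (proenkephalin) had 445 and 760 reads (0.85), and GNRH1 had 4 and 26. Across 59 lists with at least 4 members over the mean of 50, 39 medians lay below 0 and 20 above, from -1.17 to 0.60 (49 below and 10 above with equal totals), and 18 lists held no member past 2-fold.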
